A study of Homo sapiens with 13 samples.

Results

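The genes described here encode splicing factors and heterogeneous nuclear ribonucleoproteins (hnRNPs), followed in a lung cancer cell line kept in starvation medium for up to 48 h after a night without serum. They were chosen by name among the features (1 probe set of the array each) that carry 1 platform symbol. Taken were symbols that start with SRSF, HNRNP, SNRP, SF3A or SF3B, or are U2AF1, U2AF2, PRPF8, PRPF19, TRA2A or TRA2B. The feature of the highest mean was kept for each symbol. This gave 48 genes of 12765 features that carry 1 symbol and score at least 0 on some array, out of 39937 features in the table. They are 21 hnRNPs, 12 SR proteins (the SRSF genes and both TRA2 genes), 11 Sm and other proteins of the small nuclear ribonucleoproteins (snRNPs), and U2AF1, U2AF2, PRPF8 and PRPF19. All 48 candidate genes passed the filter on low scores. Among the features with 1 symbol, 0 had a symbol that starts with SF3A or SF3B, and these genes were not analysed here. Features that carry several symbols were not searched, so genes of these families may be missing. HNRNPD is not among the 48 genes.

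Introns are removed from nascent transcripts by the spliceosome, which is built anew on each intron from snRNPs. The U1 snRNP marks the start of the intron, U2AF and the U2 snRNP mark its end and branch point, and rings of Sm proteins hold the snRNA of most snRNPs. SR proteins bind mainly exons and recruit this machinery, whereas hnRNPs coat nascent RNA and often keep exons from being recognised, so that the balance between both groups sets much of alternative splicing.

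H1975 is an established lung adenocarcinoma line. After washing and a night without fetal calf serum, the cells were given starvation medium without EGF, and total RNA was hybridised to 13 Human Gene 2.0 ST arrays. The 0 h and 48 h groups hold 3 arrays, the 24 h group holds 2, and a single array stands for each of 0.5, 1, 2, 4 and 6 h. All groups, 0 h included, thus share the overnight starvation, and no arm in serum was used. The labels do not say that replicates came from separate cultures, and every p-value therefore reflects just the variation among these arrays, which may be technical. Values are SCAN scores, which are standardised within each array. Background lies near 0, and a difference in score is not a log2 fold change. As the RNA was taken in bulk, fewer cells that make a transcript and less RNA per cell cannot be told apart. A score covers the probes of a whole gene and does not separate its isoforms.

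The cell line label was checked against marker genes. Of 10 markers of lung epithelium and adenocarcinoma 8 were measured, with mean scores from 0.804 to 2.86. Of markers of other cells, LUM (fibroblasts) had a mean of 0.0443, VWF (endothelium) −0.0230, and CD14 and LYZ (leukocytes) 0.0608 and −0.0346. CD68, a lysosomal protein that epithelial cells also make, had 2.48, and KDR, a receptor of endothelium, 0.602. Over the 48 h, 2 of the 8 epithelial markers rose in limma, NAPSA from 0.443 to 1.65 and EGFR from 2.47 to 2.69, and the other 6 did not pass. KDR rose from 0.385 to 0.912 (adjusted p = 5.30e-05), and CD68 differed by −0.101 (0.360) over 13 arrays and fell by 0.194 (0.000668) over 11. LUM, VWF, CD14 and LYZ did not pass and had means at 48 h between −0.0505 and −0.00360. The part of these changes in the results below was not tested. Among the 8 arrays up to 6 h, the first 0 h replicate and the array of 2 h deviated from the other 6, and results that rest on them are also given over the 11 arrays that remain. The 2 h array is the sole one of its time point and enters none of the comparisons, so these values are those without 0 h replicate 1.

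Over 48 h, 13 of the 48 genes fell and 1 rose in limma's test over all 12765 features (adjusted p under 0.05, Benjamini-Hochberg, two-sided). The share that fell was 27.1%, where 9.37% of all features fell, and 9.46% of all features rose. The 48 genes score higher than most features. Their median per array lay between 1.60 and 1.825, and that of all 12765 features between 0.609 and 0.679. Among features with a mean score of at least 0.1, 13 of 45 genes fell, beside 12.3% of all features. The genes that fell were HNRNPA1, HNRNPAB, HNRNPDL, HNRNPF, HNRNPL, HNRNPM, HNRNPU, HNRNPUL1, TRA2B, SRSF1, SNRPD1, SNRPF and PRPF19, and the gene that rose was SRSF8. The median difference of the 48 genes was −0.112, beside −0.0017 over all features, and 41 of the 48 differences lay below 0. At an unadjusted p under 0.05 the counts were 23 lower and 1 higher, where 3881 of all 12765 features passed in either direction. Over 11 arrays 19 fell (39.6%, against 12.4% of all features) and SRSF8 rose (14.3% of all features rose), with a median of −0.0861 beside 0.0047. Leaving out 48 h replicate 1 lowered the count to 6, where 5.94% of all features fell.

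**Figure D1:**
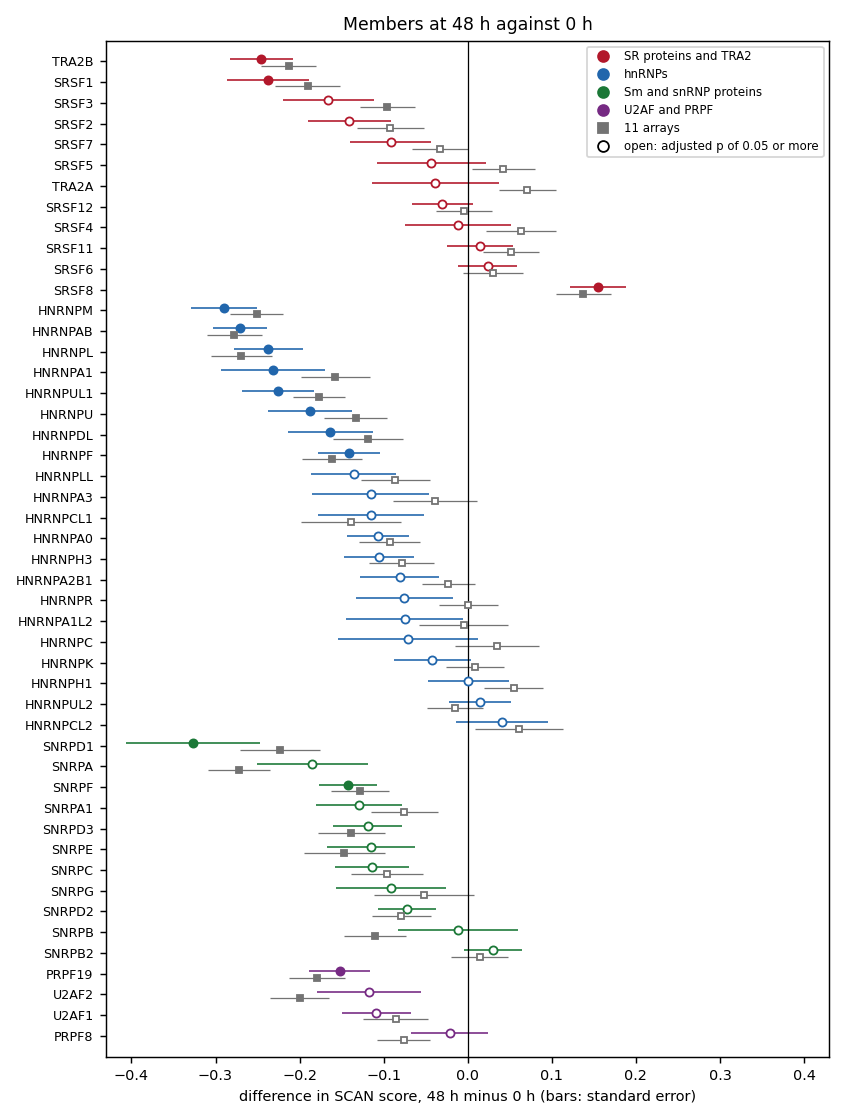
Difference in SCAN score between 48 h and 0 h for the 48 genes, ordered by group and size. Coloured circles are fits over 13 arrays and grey squares over 11 arrays, filled where the adjusted p is under 0.05, and bars are standard errors. Of the 48 circles 41 lie left of 0, and SRSF8 is the filled circle on the right.

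Counted without a model, 21 genes had every 48 h array below every 0 h array, and SRSF8 had every 48 h array above. Over all features the shares were 17.3% below and 17.6% above. Without 0 h replicate 1 the counts were 25 below and 4 above, beside 23.4% and 26.7%.

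Among the hnRNPs, 8 of 21 fell and 0 rose, over 13 and over 11 arrays. Of all features 9.37% fell and 9.46% rose over 13 arrays, and 12.4% and 14.3% over 11. The median difference of the hnRNPs was −0.115 over 13 arrays and −0.0863 over 11, and their differences ranged from −0.290 to 0.0407.

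HNRNPAB, an RNA-binding protein of the hnRNP A/B family, scored 2.30, 2.29 and 2.34 at 0 h, 2.29 at 0.5 h, 2.34 at 1 h, 2.19 at 2 h, 2.21 at 4 h, 2.32 at 6 h, 2.13 and 2.16 at 24 h, and 2.03, 2.06 and 2.03 at 48 h. Every 48 h array lay below every other array, and both 24 h arrays lay below all of the earlier ones. It fell by 0.271 (SE 0.0323) at 48 h, with an adjusted p of 0.000202 from limma and 1.55e-05 over 11 arrays.

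HNRNPM binds GU-rich elements and is known for setting splice choices between epithelial and mesenchymal cells. Its score was 2.28, 2.17 and 2.16 at 0 h, 2.17, 2.15, 2.16, 2.14 and 2.22 on the single arrays from 0.5 h to 6 h, 2.14 and 2.18 at 24 h, and 1.91, 1.90 and 1.93 at 48 h. The arrays up to 24 h overlapped, and the 48 h arrays stood below all of them. HNRNPM fell by 0.290 (SE 0.0392, limma adjusted p = 0.000481), and by 0.251 over 11 arrays.

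HNRNPL, which binds CA-rich stretches, scored 2.50, 2.56 and 2.63 at 0 h, 2.55, 2.55, 2.43, 2.57 and 2.60 from 0.5 h to 6 h, 2.35 and 2.28 at 24 h, and 2.30, 2.36 and 2.32 at 48 h. The 24 h and 48 h arrays overlapped with each other, and all 5 lay below the 8 earlier arrays. The fall at 48 h was 0.237 (SE 0.0408, limma adjusted p = 0.00233). HNRNPUL1, related in sequence to HNRNPU, scored 1.93, 1.78 and 1.78 at 0 h, 1.83, 1.83, 1.93, 1.84 and 1.80 from 0.5 h to 6 h, 1.78 and 1.76 at 24 h, and 1.60 on each 48 h array. It was high on 0 h replicate 1 and at 2 h and lowest on the 48 h arrays, and fell by 0.226 (SE 0.0425, limma adjusted p = 0.00395), or by 0.177 over 11 arrays.

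The other 4 hnRNPs that fell had larger adjusted p-values. HNRNPA1, which binds exonic and intronic silencers, scored 1.89, 1.66 and 1.68 at 0 h, 1.56 and 1.48 at 24 h, and 1.43, 1.56 and 1.54 at 48 h. Its difference at 48 h was −0.232 (SE 0.0615, limma adjusted p = 0.0240) and −0.158 over 11 arrays. The gene has many processed copies in the genome, so its score may hold signal from them and is uncertain. HNRNPU, which binds RNA and chromatin-associated scaffold, averaged 2.45 ± 0.103 at 0 h and 2.26 ± 0.0460 at 48 h (SD, n = 3), HNRNPDL, a relative of hnRNP D, 2.25 ± 0.0886 and 2.08 ± 0.0425, and HNRNPF, which binds runs of G, 1.79 ± 0.0404 and 1.65 ± 0.0183. In each of these the 48 h arrays lay below the 0 h arrays. Of 15 distinct alternative settings HNRNPDL passed in 7, HNRNPF in 9, HNRNPA1 in 12 and HNRNPU in 13.

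The other 13 hnRNPs did not pass. HNRNPK, a poly(C)-binding protein, averaged 2.48 ± 0.0887 at 0 h and 2.44 ± 0.0343 at 48 h (SD, n = 3), with a difference of −0.0420 (SE 0.0459, limma adjusted p = 0.604). HNRNPC, which binds U-rich tracts, averaged 1.69 ± 0.184 and 1.62 ± 0.0561, and its difference was −0.0712 over 13 arrays and 0.0346 over 11. HNRNPC shares sequence with HNRNPCL1 and HNRNPCL2, and HNRNPA1L2 with HNRNPA1, so these scores are uncertain. HNRNPA3, HNRNPCL2, HNRNPA1L2 and HNRNPCL1 had means between 0.0408 and 0.214 and lay close to background.

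**Figure D2:**
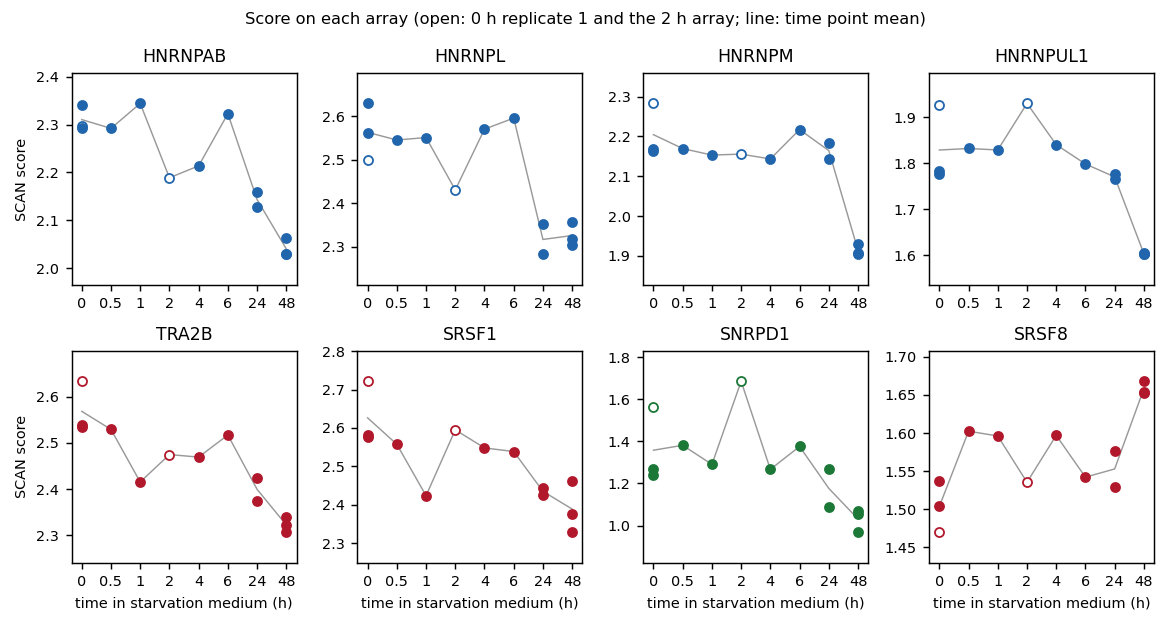
SCAN score on each of the 13 arrays against hours in starvation medium (categories, not to scale) for 8 genes; each panel has its own vertical range. Open circles are 0 h replicate 1 and the 2 h array, and the line joins time point means. The 48 h arrays are the lowest in HNRNPAB, HNRNPM, HNRNPUL1, TRA2B and SNRPD1 and the highest in SRSF8.

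Among the SR proteins and TRA2 genes, 2 of 12 fell and 1 rose, where 9.37% of all features fell and 9.46% rose. These counts lie near the shares over all features and are no result about the group. Over 11 arrays 3 fell and 1 rose, beside 12.4% and 14.3% of all features. The median difference of the 12 was −0.0411 over 13 arrays and 0.0128 over 11, so the direction of the group median turned without 0 h replicate 1. TRA2B, which binds GAA-rich exonic enhancers, scored 2.63, 2.53 and 2.54 at 0 h, 2.53, 2.42, 2.47, 2.47 and 2.52 from 0.5 h to 6 h, 2.38 and 2.42 at 24 h, and 2.31, 2.34 and 2.32 at 48 h. The 48 h arrays lay below all others, and the 24 h arrays overlapped with the 1 h array. It fell by 0.246 (SE 0.0372, limma adjusted p = 0.00104).

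SRSF1, the SR protein also known as SF2/ASF, scored 2.72, 2.58 and 2.58 at 0 h, 2.56, 2.42, 2.60, 2.55 and 2.54 from 0.5 h to 6 h, 2.44 and 2.42 at 24 h, and 2.33, 2.46 and 2.38 at 48 h. Replicate 1 was the highest of the 0 h arrays, and the 24 h and 48 h arrays overlapped. The fall at 48 h was 0.238 over 13 arrays (SE 0.0484, limma adjusted p = 0.00615) and 0.190 over 11.

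SRSF8 is an intronless copy of SRSF2 that codes for its own SR protein, and it was the gene of the 48 that rose. It scored 1.47, 1.50 and 1.54 at 0 h, 1.60, 1.60, 1.54, 1.60 and 1.54 from 0.5 h to 6 h, 1.58 and 1.53 at 24 h, and 1.65, 1.67 and 1.65 at 48 h. The 48 h arrays lay above all others, and the remaining arrays overlapped. The rise was 0.155 (SE 0.0330, limma adjusted p = 0.00800) and 0.138 over 11 arrays. SRSF2, its parent gene, averaged 2.34 at 0 h and 2.20 at 48 h, which did not pass over 13 or over 11 arrays (limma adjusted p = 0.107 over 11).

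SRSF3, the smallest SR protein, averaged 2.28 ± 0.125 at 0 h and 2.12 ± 0.0219 at 48 h (SD, n = 3). Its limma adjusted p was 0.0577 over 13 arrays and 0.0455 over 11. SRSF6 had 2.30 ± 0.0437 and 2.32 ± 0.0232, and TRA2A, the paralogue of TRA2B, 1.73 ± 0.190 and 1.69 ± 0.0165. The difference of TRA2A was −0.0388 over 13 arrays and turned to 0.0707 over 11, and it did not pass in either. SRSF12 had a mean of −0.0724, the lowest of the 48 genes, and lay at background.

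Of the Sm and other snRNP proteins, 2 of 11 fell over 13 arrays and 6 of 11 over 11 arrays, with medians of −0.116 and −0.110. Of all features 9.37% fell over 13 arrays and 12.4% over 11. The 2 of 11 lie near the share over all features and are no result about the group. SNRPD1, a member of the Sm ring, scored 1.56, 1.24 and 1.27 at 0 h, 1.38, 1.29, 1.69, 1.27 and 1.38 from 0.5 h to 6 h, 1.27 and 1.09 at 24 h, and 0.968, 1.06 and 1.07 at 48 h. The 2 h array and 0 h replicate 1 were its highest, and the 48 h arrays its lowest. It fell by 0.326 (SE 0.0799, limma adjusted p = 0.0163) over 13 arrays and by 0.224 (0.00262) over 11. SNRPD1 passed in 13 of 15 distinct alternative settings, and not without 48 h replicate 1 or 2.

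SNRPF, another Sm ring protein, scored 0.501, 0.434 and 0.483 at 0 h, 0.502 and 0.449 at 24 h, and 0.314, 0.363 and 0.313 at 48 h. The 0 h and 24 h arrays overlapped, and the 48 h arrays lay below both. The fall was 0.143 (SE 0.0348, limma adjusted p = 0.0160). SNRPF passed in 13 of 15 distinct alternative settings, and not without 48 h replicate 1 or 3.

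SNRPA, an RNA-binding protein of the U1 snRNP, scored 1.93, 2.21 and 2.18 at 0 h, 2.11 and 2.08 at 24 h, and 1.86, 1.94 and 1.97 at 48 h. Replicate 1 of 0 h lay among the 48 h arrays, and the other 0 h arrays lay above them. The difference was −0.185 (limma adjusted p = 0.0791) over 13 arrays and −0.272 (6.28e-05) over 11, so its call rests on leaving out that array. SNRPB, SNRPD3 and SNRPE, all of the Sm ring, also passed over 11 arrays but not over 13, with 11-array differences of −0.110, −0.139 and −0.147. A second feature of SNRPE did not pass over 11 arrays, with −0.0713 (limma adjusted p = 0.162), so the call of SNRPE rests on the feature kept. The array data give no coordinates, so which feature lies at the SNRPE gene was not tested and its score is uncertain. SNRPB2 of the U2 snRNP had a difference of 0.0296 over 13 arrays, the only one of the 11 above 0.

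Of the remaining 4 genes PRPF19, the ubiquitin ligase that gives the PRP19 complex its name, fell. It scored 1.45, 1.54 and 1.53 at 0 h, 1.48 and 1.46 at 24 h, and 1.32, 1.37 and 1.37 at 48 h. The 48 h arrays lay below the rest, and the 0 h and 24 h arrays overlapped. The fall was 0.152 (SE 0.0363, limma adjusted p = 0.0143) and 0.179 over 11 arrays. PRPF19 passed in 13 of 15 distinct alternative settings, and not with quantile normalisation or without 48 h replicate 1.

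U2AF2, the subunit of U2AF that binds the polypyrimidine tract, scored 2.57, 2.78 and 2.86 at 0 h, 2.59 and 2.61 at 24 h, and 2.65, 2.63 and 2.59 at 48 h. Again replicate 1 of 0 h was low, here as low as the late arrays. The difference at 48 h was −0.117 (limma adjusted p = 0.239) over 13 arrays and −0.200 (0.000633) over 11. U2AF1, its partner that reads the AG at the intron end, averaged 1.36 ± 0.0776 at 0 h and 1.25 ± 0.0194 at 48 h (SD, n = 3; limma adjusted p = 0.0980). PRPF8, the protein at the catalytic centre of the spliceosome, averaged 2.88 ± 0.0948 and 2.86 ± 0.00800, with a difference of −0.0215 (0.809).

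The fall was then divided at 24 h; both steps use the 24 h arrays. At 24 h against 0 h, 3 of the 48 genes fell (2.19% of all features fell) and 0 rose (5.05% of all features rose). At an unadjusted p under 0.05 the counts were 9 and 0 in limma. Of all 12765 features 2664 passed unadjusted in either direction, a share near that of the 48 genes, so the unadjusted count is no result about them. HNRNPL fell by 0.246 (adjusted p = 0.0110), HNRNPAB by 0.167 (0.0215) and TRA2B by 0.169 (0.0370). Over 11 arrays 7 fell (4.43% of all features), with HNRNPA1, HNRNPF, SRSF1 and U2AF2 added. HNRNPR, which binds RNA in the nucleus and is close to SYNCRIP, then rose by 0.150 (0.0157), where 12.6% of all features rose. With 1 or the other 24 h array left out 0 fell, and over all features 0.517% and 0.227%. With scaling of each array to a common median and interquartile range 18 fell, and over all features 301 rose and 1187 fell in place of 644 and 279.

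From 24 h to 48 h, 1 gene fell (2.08% of the 48 genes, 1.99% of all features) and 0 rose (0.517% of all features). These counts lie near the shares over all features and are no result about the group. HNRNPM fell by 0.250 (SE 0.0438, limma adjusted p = 0.0126), whereas its difference from 0 h to 24 h was −0.0400 (0.688). At an unadjusted p under 0.05, 9 were lower and 1 higher, where 1732 of all 12765 features passed in either direction. Over 11 arrays 8 fell (7.22% of all features): HNRNPM, HNRNPUL1, HNRNPR, SNRPA, SNRPA1, SNRPF, PRPF19 and U2AF1. Without any 1 of the 24 h or 48 h arrays HNRNPM did not pass, with differences from −0.271 to −0.230 and adjusted p-values from 0.0592 to 0.161. Under the same scaling HNRNPM had −0.136 (adjusted p = 0.0897), while HNRNPK, SRSF6 and SRSF8 rose. Over all features 439 then rose and 185 fell, in place of 66 and 254.

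The values of both days are given side by side, and no difference between them was tested. HNRNPL had −0.246 in the first day and 0.00900 in the second, HNRNPA1 −0.221 and −0.0106, and HNRNPF −0.131 and −0.0107. HNRNPM had −0.0400 and −0.250, SNRPF 0.00256 and −0.145, PRPF19 −0.0349 and −0.117, and HNRNPUL1 −0.0586 and −0.167. HNRNPAB lay between, with −0.167 and −0.103. With scaling to a common median and interquartile range HNRNPM fell in the first day, by 0.168 (limma adjusted p = 0.0232), and its value for the second day, −0.136, was then the smaller. HNRNPUL1 then also fell in the first day, by 0.165 (0.0227), and HNRNPAB by 0.298 (0.00192), and neither passed in the second.

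**Figure D3:**
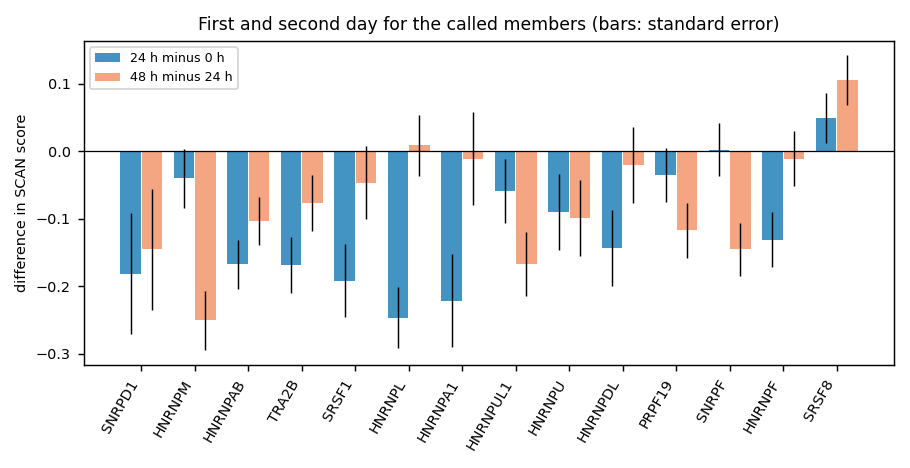
Difference in SCAN score over the first day (24 h minus 0 h, blue) and the second day (48 h minus 24 h, orange) for the 14 genes called at 48 h against 0 h, from the fit over 13 arrays, with standard errors. The blue bar is the longer one in HNRNPL (−0.246 against 0.00900) and the orange bar in HNRNPM (−0.250 against −0.0400), an order that turns for HNRNPM with scaling to a common median and interquartile range (−0.136 against −0.168).

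In the first hours no gene of the 48 passed. For the mean of 0.5 h and 1 h against 0 h, 0 were called among the 48 genes and over all features in limma. At an unadjusted p under 0.05, 1 gene was higher and 2 were lower. Of all 12765 features 1155 passed unadjusted there in either direction, a share above that of the 48 genes. For the mean of 4 h and 6 h the count was 0 in both directions also without adjustment, where 623 of all features passed. With scaling to a common median and interquartile range 0 passed in either comparison, but at an unadjusted p under 0.05, 20 were lower at 0.5 h and 1 h and 13 at 4 h and 6 h, and 0 were higher. Over all features 1823 and 1100 then passed unadjusted in either direction. Without this scaling the medians were 0.0027 and −0.0085, beside 0.0205 and 0.0112 over all features. Over 11 arrays 0 of the 48 passed in both comparisons, where 0.172% of all features rose and 0.00783% fell at 0.5 h and 1 h, and 0.149% rose and 0.0157% fell at 4 h and 6 h. Each of these time points has a single array.

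The first 0 h replicate and the 2 h array carried their own pattern in these genes. On both of them, 18 of the 48 genes (37.5%) lay above the range of the other 6 arrays up to 6 h and 8 (16.7%) below it, against 20.9% and 18.1% of all features. Of the SR proteins and TRA2 genes 8 of 12 were above and 0 below, and of the hnRNPs 8 of 21 above and 2 below. Of the snRNP proteins 2 of 11 were above and 3 below, and PRPF8, PRPF19 and U2AF2 were below.

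TRA2A, singled out after its values were seen, scored 1.95 on 0 h replicate 1 and 1.97 at 2 h, where the other 6 arrays lay between 1.61 and 1.77. SNRPD1 scored 1.56 and 1.69 where the others lay between 1.24 and 1.38. In the other direction U2AF2 scored 2.57 and 2.44, where the others lay between 2.71 and 2.86, and SNRPB 2.27 and 2.45, where the others lay between 2.51 and 2.66. Set against the average of those 6, the 2 h array deviated by 0.381 in SNRPD1, 0.292 in TRA2A and −0.337 in U2AF2, and what set both arrays apart was not tested. The median SD of the 48 genes at 0 h was 0.0887 with replicate 1 (n = 3) and 0.0359 without it, while that of all features was 0.0560 and 0.0296. The median SD of the 48 genes was 0.0283 at 24 h (n = 2) and 0.0317 at 48 h (n = 3).

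**Figure D4:**
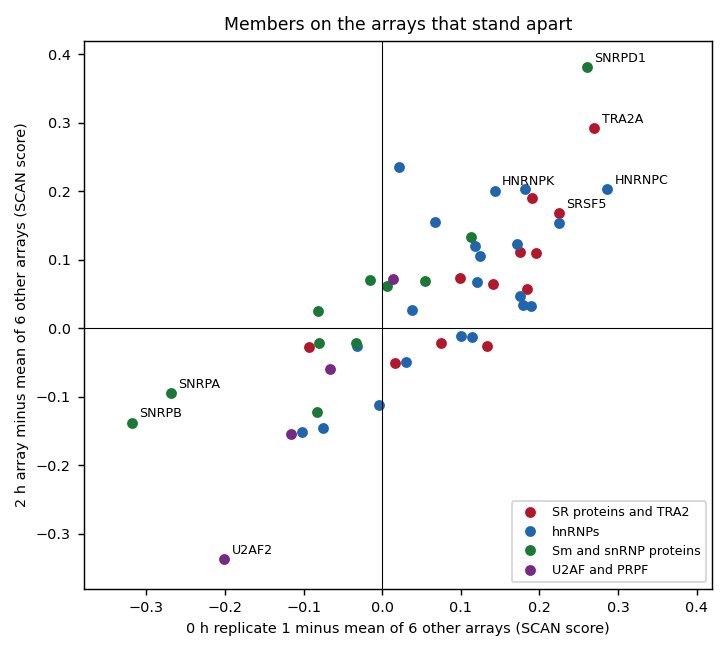
Deviation of 0 h replicate 1 (horizontal) and of the 2 h array (vertical) from the mean of the other 6 arrays up to 6 h, in SCAN score, 1 point per gene and coloured by group. TRA2A, HNRNPC, SRSF5 and SNRPD1 lie far up and right, with scores above the others on both arrays, and U2AF2, SNRPB and SNRPA far down and left.

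The sequence upstream of the genes was taken from RefSeq (GRCh38.p14), since the array data give no coordinates. Windows of 250 bases before the annotated start were held for 44 of the 48 genes. HNRNPA1, SRSF2, SNRPD1 and TRA2A had no entry. The windows of the 6 genes whose fall passed under all alternatives, and of SRSF8, are shown for 120 bases up to the start, 5′ to 3′ on the gene's strand, with matches to the searched motifs in capitals. HNRNPAB lies at chr5:178204413-178204532 (plus strand), HNRNPL at chr19:38852348-38852467 (minus), HNRNPM at chr19:8444855-8444974 (plus), HNRNPUL1 at chr19:41262437-41262556 (plus), SRSF1 at chr17:58007247-58007366 (minus), TRA2B at chr3:185938015-185938134 (minus) and SRSF8 at chr11:95066757-95066876 (plus). HNRNPL, SRSF8 and HNRNPUL1 have further annotated starts, not shown, and the first listed was taken.
HNRNPAB: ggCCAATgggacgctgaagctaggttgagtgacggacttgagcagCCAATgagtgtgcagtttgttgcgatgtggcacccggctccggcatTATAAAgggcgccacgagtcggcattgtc
HNRNPL: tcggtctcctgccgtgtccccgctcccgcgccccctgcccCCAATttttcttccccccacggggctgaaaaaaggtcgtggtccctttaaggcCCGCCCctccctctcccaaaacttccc
HNRNPM: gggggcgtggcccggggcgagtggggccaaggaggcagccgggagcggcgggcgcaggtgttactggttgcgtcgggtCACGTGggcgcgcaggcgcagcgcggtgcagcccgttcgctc
HNRNPUL1: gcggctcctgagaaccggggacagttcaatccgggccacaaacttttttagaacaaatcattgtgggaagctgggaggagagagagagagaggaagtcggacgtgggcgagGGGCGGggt
SRSF1: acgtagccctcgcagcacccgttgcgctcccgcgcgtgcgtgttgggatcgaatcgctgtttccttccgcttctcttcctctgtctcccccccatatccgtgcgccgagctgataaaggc
TRA2B: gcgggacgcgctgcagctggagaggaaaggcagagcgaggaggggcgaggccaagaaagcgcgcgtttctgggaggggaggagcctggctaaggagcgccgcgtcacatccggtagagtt
SRSF8: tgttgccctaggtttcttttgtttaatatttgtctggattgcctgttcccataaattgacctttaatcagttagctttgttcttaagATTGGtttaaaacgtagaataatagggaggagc

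The window of HNRNPAB holds the letters CCAAT at 2 places and TATAAA, that of HNRNPL CCAAT and GGGCGG (read on the other strand), that of HNRNPM CACGTG, that of HNRNPUL1 GGGCGG and that of SRSF8 CCAAT on the other strand. The SRSF1 and TRA2B stretches shown hold no match. Of 12 motifs searched on both strands of the 250 bases, CCAAT, the site known for NF-Y, was present in 25 of the 44 genes (56.8%), where 37.0% of 27305 genes with a window held it, and in 17 of 20 hnRNPs. The 27305 genes are all those with a window, whether or not the array measured them, so genes not expressed in these cells may be among them. Shares over expressed genes alone were not computed, and an excess over the 27305 may be shared by other expressed genes. Counted by window, since some genes have several starts, the shares for CCAAT were 44.4% of 63 and 32.0% of 35116. GGGCGG, known for SP factors, was in 59.1% against 46.2% of genes, CACGTG in 9.09% against 7.73% and TTTCCCGC, known for E2F, in 6.82% against 1.70%. TATAAA was in 6 of the 44, and the palindrome known for ZBTB33 in 2 (4.55% against 0.447%). TTTGGCGC, TGACGTCA and 1 form each of the NRF1, YY1 and SRF sites were in 0 of the 44. TTTCCCGC can overlap GGGCGG on the other strand.

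The letters CCGGAAG, the core bound by ETS factors, were in 12 of 44 genes (27.3%) and in 22.2% of their windows. Of the same 27305 genes, expressed here or not, 10.2% held it, and 8.52% of windows. Of the snRNP proteins 7 of 10 held it, and 4 of them are shown with the match in capitals, which on the other strand reads CTTCCGG. They lie at chr20:2470809-2470845 (SNRPB, minus), chr20:16729989-16730025 (SNRPB2, plus), chr19:45692358-45692394 (SNRPD2, minus) and chr2:70293487-70293523 (SNRPG, minus).
SNRPB: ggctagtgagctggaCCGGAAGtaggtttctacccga
SNRPB2: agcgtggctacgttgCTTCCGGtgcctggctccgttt
SNRPD2: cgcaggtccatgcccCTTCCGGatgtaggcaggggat
SNRPG: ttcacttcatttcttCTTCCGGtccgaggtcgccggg

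Of the 11 genes that fell and had a window, 1 (HNRNPF) held CCGGAAG and 8 held CCAAT. These matches are descriptions of sequence, and binding was not measured.

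Other genes of the splicing pathway were read from lists of 176 genes, of which 128 were measured. The list of LSm proteins, with 0 measured genes, is not part of the 176. At 48 h against 0 h, 27 of them fell and 3 rose over 13 arrays, where 9.37% of all features fell and 9.46% rose, and 36 and 7 over 11 arrays, where the shares were 12.4% and 14.3%. Shares of single lists near these are no result about the list. Among proteins of the U4/U6.U5, U1 and minor snRNPs 7 of 25 fell and 0 rose, with PRPF4 at −0.301 (SE 0.0401), SNRNP40 at −0.262 (0.0332) and SNRNP25 at −0.179 (0.0354). In the list of the PRP19 complex and later steps 3 of 17 fell, CDC5L at −0.241, CDC40 at −0.170 and CWC27 at −0.163. Of the spliceosomal helicases 3 of 12 fell, among them DHX9, which also unwinds RNA outside the spliceosome, at −0.295 (limma adjusted p = 0.000138).

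Of the proteins that help U2 at the branch point 3 of 13 fell, with HTATSF1 at −0.299, U2SURP at −0.190 and BUD13 at −0.175. SRRM1 and THRAP3 fell among 15 SR-related proteins, by 0.142 and 0.134. Among the 8 measured genes that phosphorylate or import SR proteins, SRPK1, a kinase of SR proteins, fell by 0.151 and TNPO3, their import receptor, by 0.162. In the SMN complex and the assembly of snRNPs, which loads Sm rings on snRNAs, 4 of 13 fell, GEMIN5 by 0.210, GEMIN4 by 0.192, WDR77 by 0.157 and TGS1 by 0.130. EIF4A3 fell by 0.146, the 1 of 6 in the exon junction complex and nonsense-mediated decay. These falls of single genes are from the fit over 13 arrays. Over 11 arrays PRPF3 rose by 0.125 (7 fell in its list), DDX17 by 0.1255 (3 fell) and RBM5 by 0.102 (5 fell). The median difference of the list with SRPK1 and TNPO3 turned from −0.0599 over 13 arrays to 0.0218 over 11.

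Of the other splicing regulators 19 were measured, of which 3 rose and 2 fell over 13 arrays and 3 rose and 5 fell over 11. ESRP2, which drives epithelial splice patterns, rose by 0.277 (SE 0.0335, limma adjusted p = 0.000219), MBNL2, a muscleblind protein, by 0.175 (0.0434) and PTBP3, a polypyrimidine tract binding protein, by 0.157 (0.0409). MBNL3 fell by 0.342 (SE 0.0413, limma adjusted p = 0.000219) and MATR3, a nuclear matrix protein, by 0.252 (0.0417). All 5 kept their direction and passed over 11 arrays.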

How the data were processed

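The deposited values are SCAN scores, which the authors computed from each array on its own (Human Gene 2.0 ST, Netaffx annotation), with no normalisation between arrays. The genome build behind the annotation is not given in the sources used here. Of 15426 features with 1 symbol, 2661 with a score below 0 on all 13 arrays were left out. Fits used limma 3.58.1 in R 4.3.3 (1 level per time point, eBayes, 5 residual degrees of freedom, 4 over 11 arrays), with adjustment over 12765 features at 0.05, for 5 comparisons. The fit was tested on simulated data. The number of arrays limits the precision, with a median standard error of 0.0407 at 48 h. Members, lists and alternatives were chosen with earlier results of these data known. Named were, per group, up to 4 members of smallest adjusted p, the 5 largest rises and falls, the 3 highest and lowest means, members called elsewhere and 3 genes per related list; HNRNPA1, HNRNPU, HNRNPDL, HNRNPF, HNRNPK, HNRNPC, TRA2A and others outside this rule were named after their values were seen. The list of LSm proteins had 0 measured genes. Of the members 48 of 48 matched RefSeq by Entrez ID. Deviations of same-numbered arrays from their time point means correlated from −0.146 to 0.0675, and those of differently numbered arrays from −0.107 to 0.107. With 2 or 3 arrays per time point the deviations are tied to one another, so these values cannot decide whether the numbers pair arrays. Python 3.11.15, pandas 2.3.3, numpy 2.4.6 and matplotlib 3.10.9 were used.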

Additional observations from a re-analysis of the deposited data

How the results depend on the processing

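At 48 h against 0 h the 17 alternatives left 6 to 23 genes lower and SRSF8 higher in each. The 23 came with array weights, where 13.8% of all features fell, and the 6 without 48 h replicate 1, where 5.94% did. HNRNPAB, HNRNPL, HNRNPM, HNRNPUL1, SRSF1, SRSF8 and TRA2B passed in all 17, of which 15 are distinct fits here, since leaving out 0 h replicate 1 with or without the 2 h array, and either 24 h array, gave the same values. Leaving out 1 array at a time gave 6 to 19 falls at 48 h with medians from −0.120 to −0.0861, 0 to 7 falls and 0 to 1 rise at 24 h with medians from −0.0645 to −0.0230, and 0 to 8 falls from 24 h to 48 h with medians from −0.0683 to −0.0401. The early medians then ran from −0.0246 to 0.0303 at 0.5 h and 1 h and from −0.0372 to 0.0221 at 4 h and 6 h. Without 0 h replicate 1 and the 2 h array, 7 fell and 1 rose at 24 h (4.43% and 12.6% of all features) and 8 fell from 24 h to 48 h (7.22%). Array weights gave 8 falls and 1 rise at 24 h (4.48% and 11.2%), and 7 falls and 1 rise from 24 h to 48 h (7.41% and 2.54%). Scaling to a common median and interquartile range gave 18 falls at 24 h (9.30% of all features, median −0.143), 3 rises and 0 falls from 24 h to 48 h (3.44% and 1.45%) with a median that turned to 0.0383, and medians of −0.0966 and −0.0731 in the early comparisons. Quantile normalisation moved the median from 24 h to 48 h to −0.0321. With the replicate number as a block, 12 fell at 48 h (7.99% of all features), 1 at 24 h (1.10%) and 0 from 24 h to 48 h (1.20%). The gene that fell at 24 h was HNRNPL (limma adjusted p = 0.0477), so HNRNPAB and TRA2B did not pass there. HNRNPM had −0.239 (0.0674) from 24 h to 48 h. The filter on a mean score of at least 0.1 kept 45 of the 48 genes. The cause of these shifts was not tested. Signal near background limits SRSF12, HNRNPA3 and HNRNPCL2.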

Other observations

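Features named for processed pseudogenes of these families were kept out of the 48 genes. A feature named HNRNPA1P10 had a mean score of 2.82 and fell by 0.278 from 0 h to 48 h (SE 0.0544, limma adjusted p = 0.00498), while another of the same name had 1.46 and a difference of −0.0349 (0.745). HNRNPA1P33 had a mean of 0.256 and fell by 0.207 (SE 0.0404, limma adjusted p = 0.00498). HNRNPKP3 and SRSF3P2 had means of 0.101 and 0.00251, near background, and differences of −0.115 (0.101) and −0.00142 (0.991). SNRPE had a second feature with a mean of 0.130 and a difference of −0.114 (0.102), beside −0.116 (0.167) for the feature that was kept.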
